A study of Mus musculus with 16 samples.

Results

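The genes described here are the matrix metalloproteases, the ADAMTS proteases and ADAMTS-like proteins, their tissue inhibitors and the lysyl oxidases of the mouse. They were taken from the deposited tables by symbol: Mmp with a number, with or without a letter, Adamts or Adamtsl with a number, Timp1 to Timp4, Lox, and Loxl1 to Loxl4. The tables held 51 such genes among 24934 genes in all. Genes with a mean of at least 3 on the deposited regularized log2 scale across a tissue's 4 libraries entered the tests. That left 45 of 51 genes of the set in the epididymal depot, 43 of 51 in the inguinal depot, 35 of 46 in brown fat and 23 of 44 in liver. In all, 47 were tested in at least 1 tissue and 20 in every tissue, while Mmp8, Mmp10, Mmp16 and Adamts18 were tested in none. The genes nearest to the limit from above had means of 3.0 for Adamts19 in epididymal fat, 3.28 for Adamts17 in inguinal fat, 3.02 for Loxl4 in brown fat and 3.16 for Adamtsl5 in liver. Just under it stood Adamts18 at 2.38, Mmp8 at 2.61, Timp1 at 2.87 and Loxl3 at 2.90, in the same order of tissues.

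The libraries came from C57BL/6 mice aged 24 weeks given either vehicle or sunitinib (Sutent), a drug that blocks receptor tyrosine kinases, among them the receptors for vascular endothelial and platelet-derived growth factors. Total RNA of brown adipose tissue, epididymal and inguinal white adipose tissue and liver was sequenced, with 2 vehicle and 2 sunitinib libraries per tissue and 16 libraries in all. The series names 8 mice, 4 per treatment, but no label ties a library to a mouse or a pool, so the p-values speak only of the spread among the libraries at hand, which may be technical. Neither a dose, a route nor a length of treatment is among the labels used here, and no genetic change is named.

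Matrix metalloproteases are zinc enzymes that cut collagens, elastin and other matrix proteins, and most are made as inactive precursors that another protease activates. ADAMTS proteases cut proteoglycans such as versican and aggrecan or trim procollagen, ADAMTS-like proteins share their matrix-binding parts without the protease, and TIMPs block the active enzymes. Lysyl oxidases cross-link collagen and elastin fibres, and fat tissue relies on this machinery when its cells grow and its vessels are remodelled.

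Metalloprotease genes that lie together on mouse chromosome 9 are shown first, because the largest fall and the largest positive difference of the set in epididymal fat both lie in this run of genes. Each line gives 41 bases around the letters TGANTCA, written for the AP-1 transcription factors and equal to its own reverse complement, in the 250 bases before the gene's start (RefSeq promoter table, GRCm38.p6, plus strand). Capitals mark the match.
Mmp13, chr9:7272462-7272502: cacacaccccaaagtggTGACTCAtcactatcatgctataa
Mmp12, chr9:7347313-7347353: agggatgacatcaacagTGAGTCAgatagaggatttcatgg
Mmp3, chr9:7445759-7445799: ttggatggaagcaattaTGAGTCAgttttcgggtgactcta
Mmp10, chr9:7502262-7502302: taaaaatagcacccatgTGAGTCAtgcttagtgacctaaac
Mmp7, chr9:7692010-7692050: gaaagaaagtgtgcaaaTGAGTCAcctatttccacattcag
These 5 were the only genes with the letters among the 33 of the set that have an entry in the table, and 18 others have none there. Mmp12 and Mmp7 have 2 entries each, of which 1 held the letters. Of the 36 entries of the set 13.9% held the letters, and of all 32851 entries 6.75% did. A match of letters is a description of the sequence and not evidence of a bound site.

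Each labelled tissue carried its defining markers. Ucp1, the uncoupling protein of brown adipocytes, stood between 16.5 and 16.9 in brown fat, Alb, which encodes albumin, between 20.1 and 20.3 in liver, and Adipoq, the adipocyte hormone adiponectin, between 15.9 and 16.2 in epididymal and 15.6 and 16.2 in inguinal fat. In inguinal fat sunitinib replicate 2 stood apart. Its 9 neutrophil markers averaged 1.30 above their mean over the 4 libraries, against −0.62 to −0.17 in the others, and its 8 skeletal muscle markers averaged −3.25, against 0.23 to 2.15. Muscle markers also split the brown fat vehicle libraries, at −1.76 and 2.11. The deposited values hold no read totals, so depth is unknown. All differences below are sunitinib minus vehicle on the regularized log2 scale ± SE from limma, with 2 libraries per group, and adjusted p-values are Benjamini-Hochberg values from limma over every gene tested in the tissue. A fit with 1 library left out takes its residual spread only from groups that still hold 2 libraries. In whole tissue, fewer cells of a type and less RNA per cell cannot be told apart.

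Mmp12 and Mmp19 fell in epididymal white fat, and no other gene of the set passed the test in any tissue. In epididymal fat 2 of 45 genes fell, where 2.06% of the 15526 genes tested fell, and 0 rose, where 0.277% of all genes rose. At an unadjusted p under 0.05, limma had 9 lower and 2 higher genes of the set there. Among all 15526 genes it had 1849 lower and 1264 higher. In inguinal fat 0 of 43 fell and 0 rose, with 0% of all genes called in either direction. At an unadjusted p under 0.05 in limma, 12 were lower and 0 higher, and among all 14916 genes 1313 were lower and 578 higher. Brown fat had 0 of 35 in each direction, again with 0% of all genes called. At the unadjusted level it had 5 lower and 7 higher, and among all 13044 genes 910 lower and 1191 higher. In liver 0 of 23 fell and 0 rose, where 0.0726% and 0.121% of all genes did. At the unadjusted level 3 were lower and 0 higher, and among all 12394 genes 641 were lower and 430 higher. The smallest adjusted p of the set was 0.0121 in epididymal fat, 0.295 in inguinal fat, 0.228 in brown fat and 0.294 in liver.

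**Figure D1:**
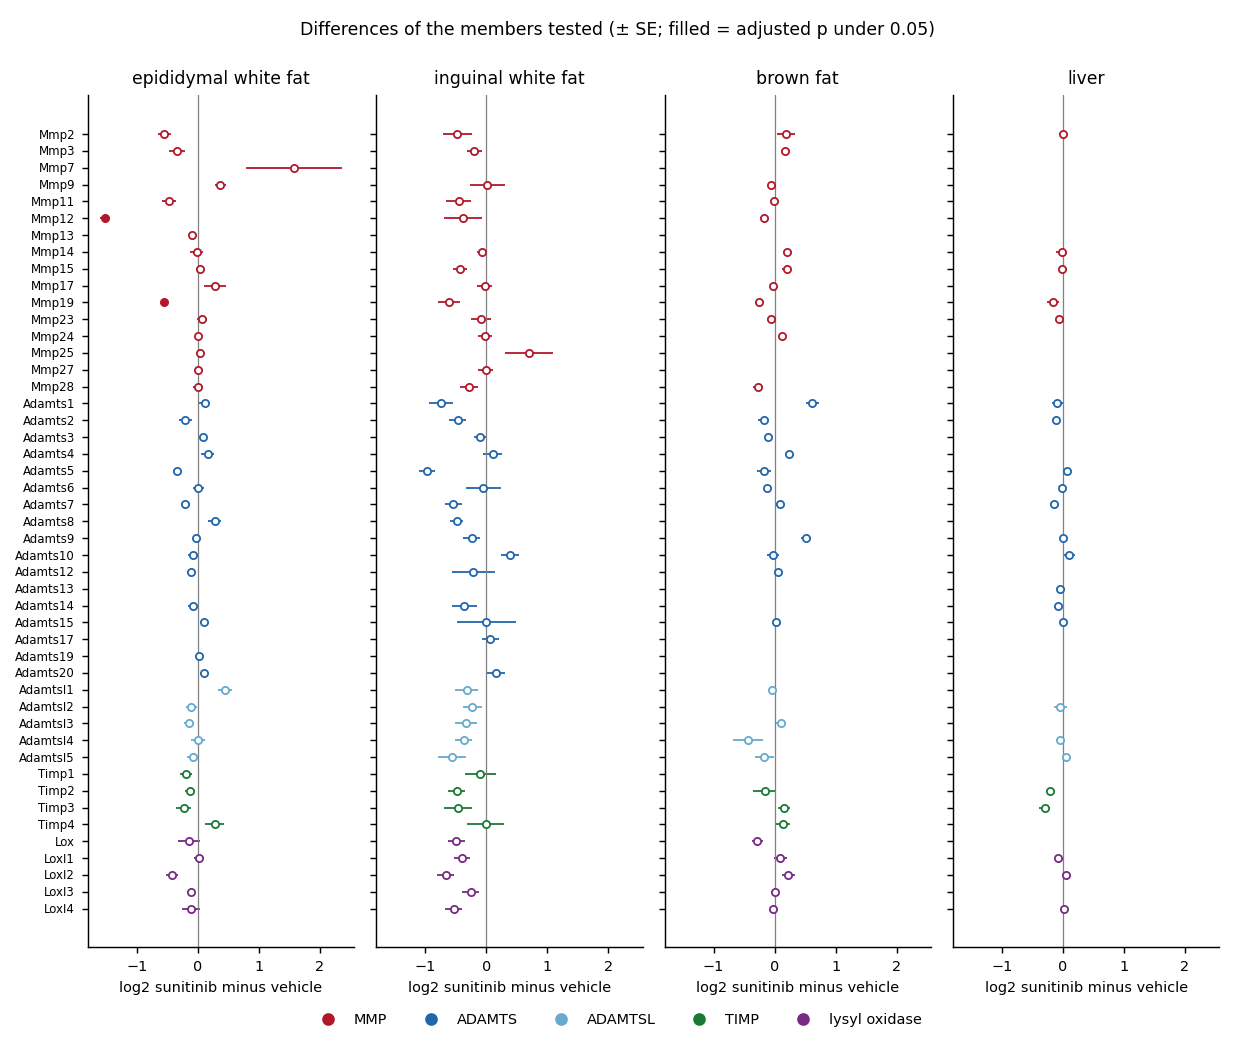
Sunitinib minus vehicle difference (log2, horizontal axis, bars are SE) of every tested gene of the set in each of the 4 tissues, coloured by family. The filled points, for an adjusted p under 0.05, are Mmp12 at −1.52 and Mmp19 at −0.55 in epididymal fat.

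The direction of the set differed most from that of all genes in inguinal fat. There 36 of 43 genes had a negative difference, 83.7% against 48.6% of all genes, and their median was −0.28 where that of all genes was 0.01. In 26 genes both sunitinib libraries were below both vehicle libraries, an order that 26.4% of all genes showed, and in 2 both were above, against 24.0% of all genes. Epididymal fat had 24 of 45 negative genes, 53.3% against 46.7% of all genes, and a median of −0.02 against 0.01. In 18 genes both sunitinib libraries were lower (26.8% of all genes) and in 8 both were higher (27.0%). With each epididymal library centred on its median, 35 of 45 were negative. The median of all genes was then −0.08 and that of the set −0.11. Brown fat had 18 of 35 negative genes, 51.4% against 51.6% of all genes, and a median of −0.01 against −0.00 for all genes. Its groups stood apart in the lower direction for 9 genes of the set (24.0% of all genes) and in the higher direction for 10 (26.2%). With brown fat libraries centred, 14 of 35 were negative, and the median was 0.029 against 0.031 for all genes. In liver 16 of 23 were negative, 69.6% against 48.6%, with a median of −0.04 against 0.00. There 7 genes had both sunitinib libraries lower (19.2% of all genes) and 2 had both higher (18.3%). These shares describe the set, whose genes may vary together, and none of them was tested.

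Among the elastin- and collagen-cutting proteases, Mmp12, the macrophage metalloelastase, had the steepest fall. In epididymal fat it stood at 11.59 and 11.43 in vehicle replicates 1 and 2 and at 10.05 and 9.93 in sunitinib replicates 1 and 2. Both sunitinib libraries lay below both vehicle libraries by far more than the gap within either pair. The difference was −1.52 ± 0.08 (adjusted p = 0.0121), which leaves 0.348 of the vehicle level on a linear scale. With vehicle replicate 1 left out the difference was −1.44, and with vehicle replicate 2 left out it was −1.60. The call was lost in both fits, whose residual spread came from the sunitinib pair alone. In inguinal fat Mmp12 read 9.74 and 9.01 in the vehicle and 9.21 and 8.77 in the sunitinib libraries, and these groups overlapped (−0.38 ± 0.31, adjusted p = 0.593). In brown fat the values were 4.55 and 4.66 against 4.40 and 4.46, with both sunitinib libraries lower (−0.17 ± 0.06, adjusted p = 0.268). Liver Mmp12 averaged below 3 and was not tested.

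Mmp19, a metalloprotease of basement membrane substrates, was the other gene that fell. Epididymal fat gave 10.48 and 10.40 in the vehicle and 9.88 and 9.89 in the sunitinib libraries. The sunitinib pair lay within 0.01 of each other and below both vehicle libraries, and the difference was −0.55 ± 0.06 (adjusted p = 0.0297). Leaving out vehicle replicate 1 gave an adjusted p of 0.232, leaving out vehicle replicate 2 gave 0.263, and dropping the filter on the mean gave 0.0521. Inguinal fat had 10.02 and 9.93 against 9.59 and 9.15 (−0.61 ± 0.18, adjusted p = 0.354), brown fat 8.14 and 8.16 against 7.82 and 7.98 (−0.25 ± 0.08, adjusted p = 0.252), and liver 8.89 and 9.12 against 8.76 and 8.93 (−0.16 ± 0.10, adjusted p = 0.730). The groups stood apart, with sunitinib lower, in the 3 fat depots and overlapped in liver.

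Macrophage markers moved with these 2 genes in epididymal fat. Of 16 markers tested there 10 fell and 0 rose, with a median of −0.74 and a range from −1.99 to 0.09. Their mean level relative to the 4 libraries was 0.43 and 0.41 in the vehicle and −0.41 and −0.42 in the sunitinib libraries. Trem2, a lipid-sensing receptor of macrophages, had a difference of −1.68 and Itgax, an integrin of macrophages and dendritic cells, one of −1.53. Adgre1 is not analysed here. In brown fat all 12 macrophage markers tested were negative (10 with libraries centred), with a median of −0.14, and 0 passed. In inguinal fat the median was −0.42 over 16 markers, 13 of them negative, with a range from −1.10 to 1.83. Their mean levels overlapped there, at 0.24 and −0.09 in the vehicle and −0.35 and 0.20 in the sunitinib libraries. In liver the median was −0.07 over 15 markers, and 0 passed in either tissue. The part of these cells in the Mmp12 and Mmp19 differences was not tested. The 12 endothelial markers of epididymal fat were also all negative, under both other scalings too, with a median of −0.40. Their mean levels were 0.00 and 0.38 in the vehicle and −0.22 and −0.16 in the sunitinib libraries, 0 passed, 6 had an unadjusted p under 0.05 in limma, and their part in the epididymal values was not tested.

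**Figure D2:**
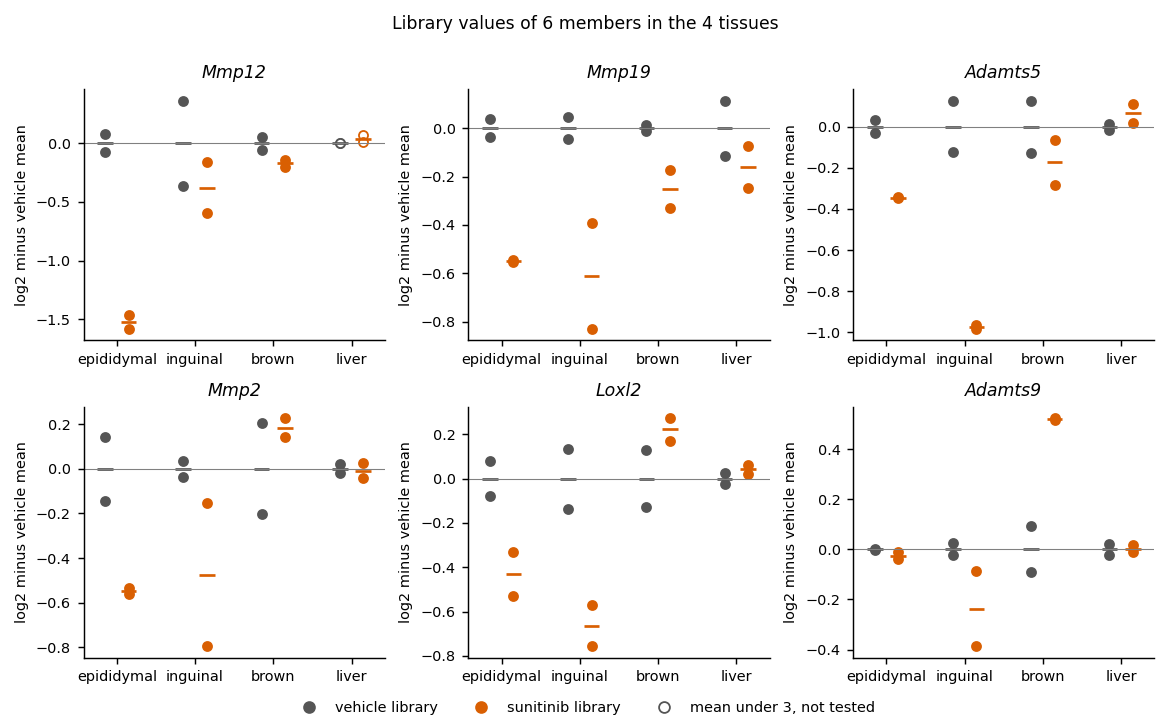
Library values of Mmp12, Mmp19, Adamts5, Mmp2, Loxl2 and Adamts9 in the 4 tissues (log2, vertical axis, each relative to the vehicle mean of its tissue; points are libraries, lines are means, open points were not tested). The Mmp12 sunitinib points of epididymal fat sit near −1.5, and the Adamts9 sunitinib points of brown fat sit near each other above both vehicle points.

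The gelatinases Mmp2 and Mmp9, which cut denatured and basement membrane collagen, had differences of opposite sign in epididymal fat. Mmp2 gave 10.04 and 10.33 in the vehicle and 9.65 and 9.62 in the sunitinib libraries, with no overlap (−0.55 ± 0.11, adjusted p = 0.0803). Mmp9 gave 6.00 and 5.93 against 6.44 and 6.23, with both sunitinib libraries higher (0.37 ± 0.09, adjusted p = 0.124). Neither passed. In inguinal fat Mmp2 stood at 10.94 and 10.87 against 10.75 and 10.11, a difference of −0.48 ± 0.24 (adjusted p = 0.459). It was −0.80 with sunitinib replicate 1 left out and −0.16 with sunitinib replicate 2 left out. Mmp9 there read 5.61 and 5.89 against 5.43 and 6.11, so that its groups overlapped (0.02 ± 0.28, adjusted p = 0.978). Brown fat Mmp2 overlapped, at 7.36 and 7.77 against 7.70 and 7.79 (0.18 ± 0.14, adjusted p = 0.548). Its difference was −0.02 with vehicle replicate 1 left out and 0.39 with vehicle replicate 2 left out. Brown fat Mmp9 also overlapped, at 3.65 and 3.75 against 3.62 and 3.66 (−0.06 ± 0.05, adjusted p = 0.580). Liver Mmp2 read 4.75 and 4.71 against 4.75 and 4.68 (−0.01 ± 0.05, adjusted p = 0.991), and liver Mmp9 averaged 2.74 and was not tested.

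Mmp14, a membrane-bound collagenase that activates pro-Mmp2, did not pass in any tissue. Its epididymal values were 10.30 and 10.58 against 10.42 and 10.43 (−0.02 ± 0.11, adjusted p = 0.941), and its inguinal values 10.32 and 10.28 against 10.24 and 10.23 (−0.07 ± 0.09, adjusted p = 0.740). In brown fat it read 6.76 and 6.87 against 6.96 and 7.09, with both sunitinib libraries higher (0.21 ± 0.08, adjusted p = 0.293). Liver values were 9.21 and 8.99 against 9.07 and 9.08 (−0.02 ± 0.09, adjusted p = 0.983). The groups overlapped in epididymal fat and liver and stood apart by small gaps in the other two tissues.

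Mmp7, or matrilysin, an epithelial metalloprotease, had the largest positive difference of the set but a wide spread. Epididymal fat gave 6.74 and 8.76 in the vehicle and 8.62 and 10.03 in the sunitinib libraries. The first sunitinib library lay between the vehicle libraries, so the groups overlapped (1.58 ± 0.79, adjusted p = 0.339). Replicate 2 was the higher one in both groups, and a fit with the replicate number as a block gave an adjusted p of 0.0205 for the same difference, though the labels do not say that the numbers pair the libraries. The difference was 0.56 with vehicle replicate 1 left out, 2.59 with vehicle replicate 2 left out, 2.28 with sunitinib replicate 1 left out and 0.87 with sunitinib replicate 2 left out. The 10 epithelial and epididymal duct markers tested in these libraries averaged −1.0 and −0.43 in the vehicle and 1.02 and 0.41 in the sunitinib libraries, all 10 with positive differences and a median of 1.5, and 1 of them, Cldn7, rose. Their part in the Mmp7 values was not tested. In inguinal fat, brown fat and liver Mmp7 averaged 0.37, −1.02 and 2.37 and was not tested.

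Along the chromosome 9 run the order of genes is Mmp13, Mmp12, Mmp1b, Mmp3, Mmp1a, Mmp10, Mmp8, Mmp27, Mmp20 and Mmp7, of which Mmp1b, Mmp1a and Mmp20 are not analysed here. In epididymal fat the differences of the other tested genes of the run lay between those of Mmp12 and Mmp7, the extremes. Mmp13, a collagenase, differed by −0.09 ± 0.03, Mmp3, or stromelysin, by −0.34 ± 0.13 and Mmp27 by 0.00 ± 0.04, and none of them passed. The letters shown above lie upstream of Mmp13, Mmp12, Mmp3 and Mmp7, and their part in these differences was not tested.

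**Figure D3:**
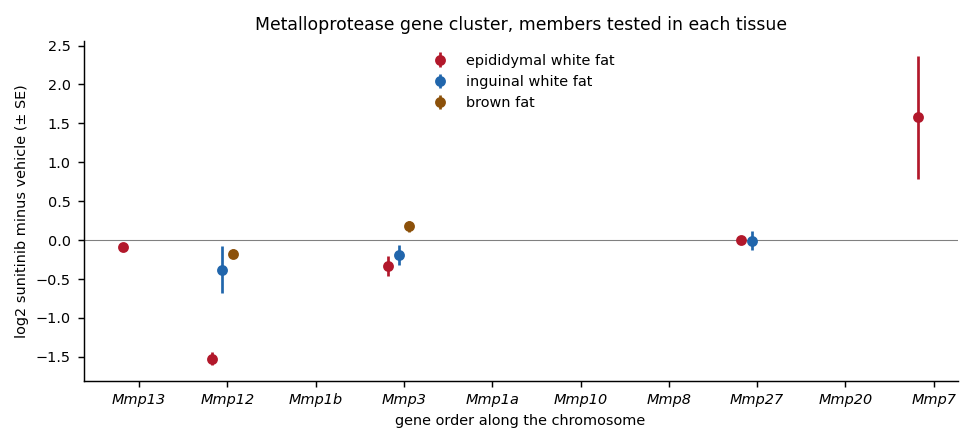
Sunitinib minus vehicle difference (log2, vertical axis, bars are SE) of the metalloprotease genes of chromosome 9 in gene order, for each tissue in which they were tested. Mmp12 at −1.52 and Mmp7 at 1.58 in epididymal fat are the extremes.

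Of the other metalloproteases, Mmp11, or stromelysin 3, gave 7.45 and 7.77 against 7.14 and 7.13 in epididymal fat, with both sunitinib libraries lower (−0.47 ± 0.12, adjusted p = 0.129). Mmp25, a membrane-anchored protease known from leukocytes, gave 3.71 and 3.84 against 3.93 and 5.03 in inguinal fat (0.70 ± 0.40, adjusted p = 0.492). Its high value sits in sunitinib replicate 2, the library with the high neutrophil markers, and the part of those markers was not tested. Mmp28, or epilysin, read 6.01 and 6.19 against 5.82 and 5.85 in brown fat, with both sunitinib libraries lower (−0.27 ± 0.08, adjusted p = 0.251). Differences of the MMPs as a family ran from −1.52 to 1.58 over 16 genes in epididymal fat, from −0.61 to 0.70 over 14 in inguinal fat, from −0.27 to 0.21 over 12 in brown fat and from −0.16 to −0.01 over 5 in liver, where 1 turned positive under quantile normalization.

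The ADAMTS proteases showed their largest differences in inguinal and brown fat, and 0 passed in any tissue. Adamts5, the main aggrecanase of the mouse, stood at 12.68 and 12.93 in the vehicle and 11.82 and 11.84 in the sunitinib libraries of inguinal fat. The groups stood apart by more than the gap within either pair, and the difference was −0.97 ± 0.13, which limma did not call (adjusted p = 0.295). With sunitinib replicate 1 left out the difference was −0.97 with an adjusted p of 0.00267, and with sunitinib replicate 2 left out −0.98 with 0.0152, while without vehicle replicate 1 or 2 the adjusted p was 0.964 and 0.999. In epididymal fat Adamts5 read 12.51 and 12.44 against 12.13 and 12.13, also without overlap (−0.35 ± 0.07, adjusted p = 0.0769). Brown fat values overlapped, at 7.07 and 7.32 against 7.13 and 6.91 (−0.17 ± 0.12, adjusted p = 0.509), and liver values were 3.87 and 3.90 against 3.90 and 4.00 (0.06 ± 0.04, adjusted p = 0.768).

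Adamts1, the chromosome 16 neighbour of Adamts5 and a protease that cuts versican, had differences of opposite sign in inguinal and brown fat. Inguinal fat gave 9.90 and 9.56 in the vehicle and 9.17 and 8.82 in the sunitinib libraries (−0.74 ± 0.19, adjusted p = 0.341). Brown fat gave 9.38 and 9.09 against 9.84 and 9.87 (0.62 ± 0.10, adjusted p = 0.228). The groups stood apart in both tissues. In epididymal fat it read 9.39 and 9.37 against 9.38 and 9.60 (0.11 ± 0.09, adjusted p = 0.526), and in liver 6.63 and 6.88 against 6.61 and 6.71 (−0.10 ± 0.09, adjusted p = 0.857), with overlap in each.

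Adamts9, a versican-cutting protease with roles in vessels, was the gene of the set with the smallest p in brown fat. Its libraries read 9.39 and 9.20 in the vehicle group and 9.81 and 9.82 in the sunitinib group. The sunitinib pair lay above both vehicle libraries, and the difference was 0.52 ± 0.08 (adjusted p = 0.228). It did not pass with all libraries. Its difference was 0.61 with vehicle replicate 1 left out and 0.43 with vehicle replicate 2 left out. With sunitinib replicate 1 or 2 left out it was 0.52 each time. In the same order of fits the Adamts1 difference was 0.76, 0.48, 0.64 and 0.60. The 12 endothelial markers of brown fat were all positive, with a median of 0.36 and mean levels of −0.02 and −0.36 in the vehicle and 0.24 and 0.14 in the sunitinib libraries, and 0 of them passed. Their part in the Adamts1 and Adamts9 values was not tested. Elsewhere Adamts9 read 9.13 and 9.13 against 9.12 and 9.09 in epididymal fat (−0.02 ± 0.06, adjusted p = 0.844), 9.11 and 9.16 against 9.04 and 8.75 in inguinal fat (−0.24 ± 0.14, adjusted p = 0.505) and 3.46 and 3.50 against 3.46 and 3.49 in liver (0.00 ± 0.03, adjusted p = 0.997).

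In liver the ADAMTS genes with the largest differences were Adamts7, which cuts cartilage oligomeric matrix protein, and Adamts2, which trims procollagen. Adamts7 gave 5.90 and 5.90 against 5.79 and 5.71 (−0.15 ± 0.06, adjusted p = 0.544), and Adamts2 gave 5.80 and 5.84 against 5.68 and 5.72 (−0.12 ± 0.06, adjusted p = 0.642). Both sunitinib livers were lower for each gene, and neither gene passed. Over the whole family the differences ran from −0.35 to 0.27 in 15 genes of epididymal fat, from −0.97 to 0.39 in 15 of inguinal fat, from −0.18 to 0.62 in 11 of brown fat and from −0.15 to 0.10 in 10 of liver.

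The 5 ADAMTS-like genes were all negative in inguinal fat, from −0.56 for Adamtsl5 to −0.23 for Adamtsl2, also under both other scalings tried, and 0 passed. Adamtsl4, a protein that binds fibrillin microfibrils, had the largest negative difference of the set in brown fat, at 5.62 and 6.40 in the vehicle and 5.57 and 5.58 in the sunitinib libraries (−0.44 ± 0.25, adjusted p = 0.433). Vehicle replicate 2 was the high library. The difference was −0.83 with vehicle replicate 1 left out and −0.050 with vehicle replicate 2 left out. In epididymal fat Adamtsl1 had the largest difference of this family, with 6.38 and 6.61 against 7.05 and 6.84 (0.45 ± 0.12, adjusted p = 0.133). Both sunitinib libraries were higher there.

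No TIMP passed in any tissue, and their differences ran from −0.48 to 0.27. Timp1, the inducible member, read 7.94 and 7.96 against 7.64 and 7.87 in epididymal fat (−0.19 ± 0.10, adjusted p = 0.344) and 7.0 and 6.37 against 6.64 and 6.55 in inguinal fat (−0.09 ± 0.26, adjusted p = 0.879). In brown fat and liver it averaged 2.87 and 1.01 and was not tested. Timp2, which also takes part in the activation of pro-Mmp2, read 12.61 and 12.66 against 12.59 and 12.43 in epididymal fat (−0.13 ± 0.09, adjusted p = 0.451). Its inguinal values were 12.10 and 11.85 against 11.59 and 11.39 (−0.48 ± 0.14, adjusted p = 0.354), its brown fat values 8.49 and 9.03 against 8.51 and 8.69 (−0.16 ± 0.19, adjusted p = 0.674), and its liver values 6.68 and 6.79 against 6.57 and 6.48 (−0.21 ± 0.07, adjusted p = 0.454). Only the brown fat groups of Timp2 overlapped among the 4 tissues. Brown fat Timp2 gave −0.44 with vehicle replicate 1 left out and 0.11 with vehicle replicate 2 left out. Inguinal Timp2 gave −0.58 with sunitinib replicate 1 left out and −0.39 with sunitinib replicate 2 left out.

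Timp3, the inhibitor that binds to the matrix, had the smallest p of the set in liver. The liver values were 5.70 and 5.97 in the vehicle and 5.51 and 5.56 in sunitinib replicates 3 and 4, with no overlap (−0.30 ± 0.09, adjusted p = 0.294). The difference was −0.43 with vehicle replicate 1 left out and −0.17 with vehicle replicate 2 left out. It was −0.28 with sunitinib replicate 3 left out and −0.33 with sunitinib replicate 4 left out. A limma fit of all 4 libraries with the description labels' replicate numbers as a block gave the difference of −0.30 an adjusted p of 0.00795. The labels do not say that these numbers pair the livers. Marker lists of other liver cells went both ways, where 48.6% of all genes were negative. Negative were 8 of 8 hepatic stellate markers (median −0.16), 9 of 10 fibroblast and progenitor markers (median −0.10) and 10 of 12 endothelial markers (median −0.11). Of each of these lists 0 passed. Positive were 5 of 7 neutrophil markers (median 0.19) and 5 of 8 hepatocyte markers (median 0.07). Of the neutrophil markers 3 rose, where 0.121% of all genes did. Stellate markers averaged −0.02 and 0.16 in the vehicle and −0.14 and 0.00 in the sunitinib libraries, and the part of these lists in the liver Timp2 and Timp3 values was not tested. Epididymal Timp3 read 10.65 and 10.97 against 10.53 and 10.62 (−0.23 ± 0.12, adjusted p = 0.351) and inguinal Timp3 11.47 and 11.42 against 11.28 and 10.66 (−0.47 ± 0.23, adjusted p = 0.456). Both depots had the sunitinib libraries below the vehicle libraries. Inguinal Timp3 gave −0.78 with sunitinib replicate 1 left out and −0.16 with sunitinib replicate 2 left out. Brown fat overlapped, at 10.97 and 10.72 against 10.96 and 11.04 (0.15 ± 0.10, adjusted p = 0.487).

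Timp4, an inhibitor known from adipose tissue and heart, overlapped in each fat depot. Epididymal fat gave 11.94 and 11.79 against 12.35 and 11.93 (0.27 ± 0.16, adjusted p = 0.389). Inguinal fat gave 11.67 and 11.94 against 12.19 and 11.40, so that the sunitinib pair straddled the vehicle pair (−0.01 ± 0.30, adjusted p = 0.991). Brown fat gave 9.51 and 9.53 against 9.81 and 9.51 (0.14 ± 0.11, adjusted p = 0.562), and liver Timp4 averaged 1.75 and was not tested.

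The 5 lysyl oxidases were all lower in both sunitinib libraries of inguinal fat than in both vehicle libraries, and 0 passed. Their differences stayed negative under quantile normalization and with libraries centred. Lox, the founding enzyme, gave 11.35 and 11.42 against 11.06 and 10.74 (−0.49 ± 0.14, adjusted p = 0.354). Loxl1, needed for elastic fibres, gave 10.52 and 10.65 against 10.31 and 10.05 (−0.40 ± 0.13, adjusted p = 0.370). Loxl2, which cross-links collagen of basement membranes, gave 10.31 and 10.04 against 9.61 and 9.42 (−0.66 ± 0.14, adjusted p = 0.313). Their paralogs showed the same order of groups. Loxl3 gave 6.12 and 5.99 against 5.83 and 5.78 (−0.25 ± 0.14, adjusted p = 0.493), and Loxl4 gave 6.86 and 6.79 against 6.26 and 6.32 (−0.53 ± 0.14, adjusted p = 0.341). Sunitinib replicate 2 was the lower of the pair for all of them except Loxl4.

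In epididymal fat Loxl2 was the member of this family with the largest difference. It read 10.07 and 9.91 against 9.46 and 9.66 (−0.43 ± 0.10, adjusted p = 0.106), with both sunitinib libraries lower. Lox read 10.49 and 10.98 against 10.51 and 10.68 (−0.15 ± 0.17, adjusted p = 0.684), and Loxl1 10.60 and 10.75 against 10.75 and 10.63 (0.02 ± 0.08, adjusted p = 0.938). Both overlapped. Loxl3 was at 6.13 and 6.22 against 6.04 and 6.08 (−0.12 ± 0.07, adjusted p = 0.400), and Loxl4 at 7.85 and 7.66 against 7.83 and 7.46 (−0.11 ± 0.15, adjusted p = 0.714).

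Brown fat had opposite signs within the lysyl oxidases. Lox gave 8.53 and 8.46 against 8.10 and 8.32, with both sunitinib libraries lower (−0.28 ± 0.09, adjusted p = 0.257), and Loxl2 gave 7.09 and 7.35 against 7.39 and 7.5, with both higher (0.22 ± 0.11, adjusted p = 0.369). Neither passed. Loxl1 at 8.08 and 7.95 against 8.23 and 7.99 (0.10 ± 0.10, adjusted p = 0.657), Loxl3 at 3.78 and 3.90 against 3.82 and 3.88 (0.00 ± 0.06, adjusted p = 0.991) and Loxl4 at 3.0 and 3.06 against 3.02 and 2.99 (−0.02 ± 0.04, adjusted p = 0.745) overlapped. In liver Loxl1 read 3.98 and 4.01 against 3.93 and 3.90 (−0.08 ± 0.04, adjusted p = 0.616), Loxl2 5.11 and 5.06 against 5.14 and 5.10 (0.04 ± 0.05, adjusted p = 0.908) and Loxl4 4.11 and 4.06 against 4.11 and 4.11 (0.02 ± 0.04, adjusted p = 0.938). Liver Lox and Loxl3 averaged 1.29 and 2.90 and were not tested.

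The inguinal differences rest on libraries of unequal spread. Over the genes tested, the difference between the libraries of a group had an SD of 0.590 for sunitinib and 0.224 for vehicle. With sunitinib replicate 1 left out, limma called 20 genes of the set lower and 2 higher, among 4103 genes called in all. With sunitinib replicate 2 left out, the library that stood apart, it called 1 lower and 1 higher, among 733 in all, and the median of the set was −0.16. The lower gene was Adamts5. The higher one was Adamts15, a versican-cutting protease named here after its values were seen, which read 7.53 and 7.5 in the vehicle and 8.2 and 6.84 in the sunitinib libraries and was called lower with sunitinib replicate 1 left out. The TIMPs averaged 0.08 in sunitinib replicate 1 and −0.34 in replicate 2, relative to their mean over the 4 libraries, while the lysyl oxidases averaged −0.16 and −0.31. Of the fibroblast and progenitor markers 10 of 12 were negative, with a median of −0.51 and mean levels of 0.29 and 0.11 in the vehicle and −0.08 and −0.32 in the sunitinib libraries. Endothelial markers averaged 0.21 and 0.14 against −0.08 and −0.27, all 12 with negative differences (11 under quantile normalization). Of either marker list 0 passed, and their part in the differences of the proteases was not tested.

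**Figure D4:**
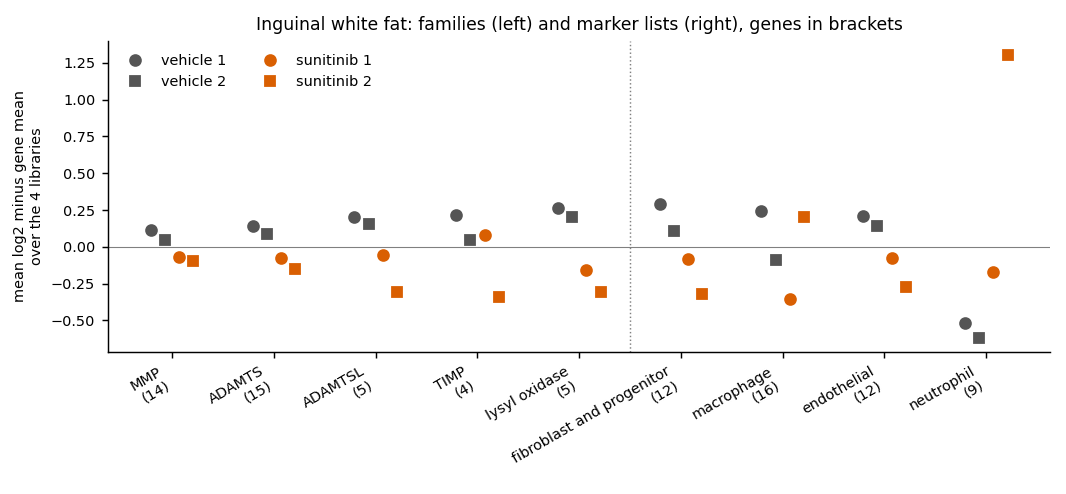
Mean level of each gene family and of 4 marker lists in the 4 inguinal fat libraries (log2, vertical axis, relative to each gene's mean over the 4 libraries; number of genes in brackets). Lysyl oxidases sit at 0.26 and 0.20 in the vehicle and −0.16 and −0.31 in the sunitinib libraries, and sunitinib replicate 2 stands at 1.30 for neutrophil markers.

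Whether the difference itself differed between tissues was tested with limma interaction contrasts for the 6 pairs. Between epididymal and brown fat 2 of 35 genes of the set differed, where 3.64% of all genes tested in both did. Mmp12 had the larger negative difference in epididymal fat, at −1.52 against −0.17 in brown fat, a difference of differences of −1.35 ± 0.11 (adjusted p = 0.00300). It passed under each alternative run for this pair in which it was tested, the leave-one-out fits included. Adamts9 was near 0 in epididymal fat and positive in brown fat, at −0.02 against 0.52, a difference of −0.54 ± 0.10 (adjusted p = 0.0306). That call held without brown fat vehicle replicate 1 (adjusted p = 0.00972) and was lost without any of the 7 other libraries, at adjusted p-values from 0.0529 to 0.120.

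Between epididymal fat and liver 1 of 22 genes differed, against 3.95% of all genes. This was Adamts5, at −0.35 against 0.06 (−0.41 ± 0.09, adjusted p = 0.0454), and it was lost without any 1 library, at adjusted p-values from 0.0591 to 0.145. No gene of the set passed in the other pairs. The count was 0 of 42 for epididymal minus inguinal fat (0% of all genes, 8 of the set at an unadjusted p under 0.05) and 0 of 35 for inguinal minus brown fat (0.0314%, 9 at the unadjusted level). It was 0 of 22 for inguinal fat minus liver (0.0430%, 7 at the unadjusted level) and 0 of 20 for brown fat minus liver (0%, 4 at the unadjusted level). How many of all genes reached the unadjusted level was not counted for these pairs. The Adamts5 difference of inguinal fat set against that of liver gave −1.04 ± 0.14 (adjusted p = 0.0754), and the Mmp2 values of epididymal fat and liver gave −0.54 ± 0.13 (adjusted p = 0.0583), both short of the threshold. These contrasts share libraries between pairs, and the shrinkage of the deposited values was done in each table separately. Shrinkage understates differences most in low genes, and Mmp12 in brown fat and Adamts5 in liver were low. The part of shrinkage in these contrasts was not tested.

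**Figure D5:**
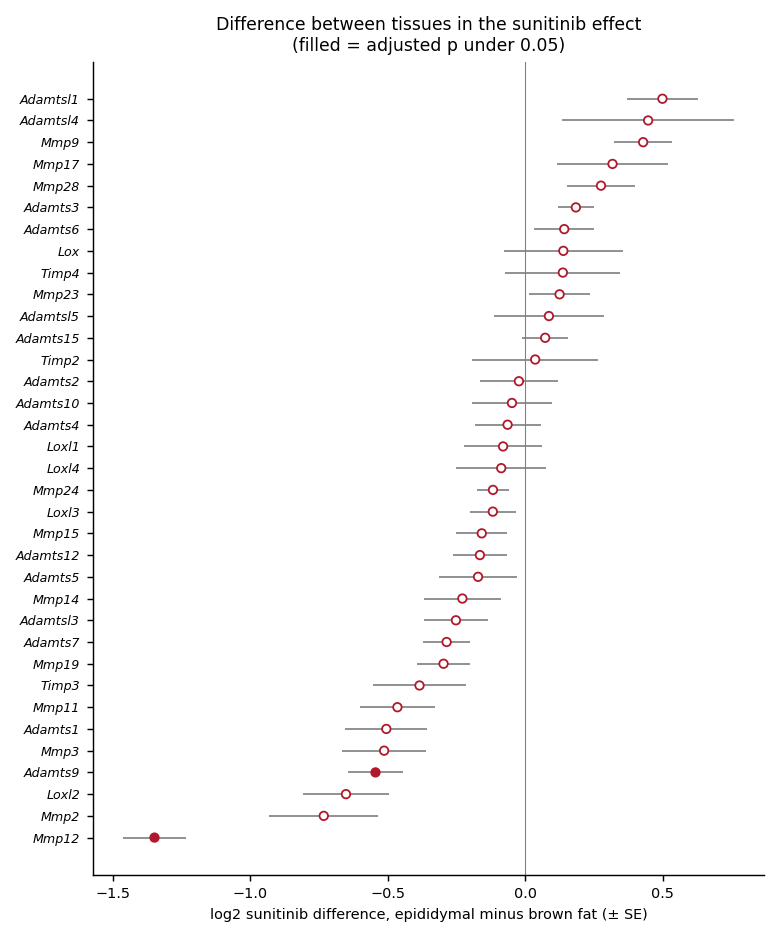
Epididymal minus brown fat difference of the sunitinib effect (log2, horizontal axis, bars are SE) for the 35 genes of the set tested in both tissues. Mmp12 at −1.35 and Adamts9 at −0.54 are filled, for an adjusted p under 0.05.

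Other proteases and matrix enzymes gave the following counts. In epididymal fat, where 2.06% of all genes tested fell and 0.277% rose, 4 of 13 cathepsin and legumain genes fell, with a median of −0.48: Ctsk and Ctss, lysosomal cysteine proteases, differed by −0.98 ± 0.06 (adjusted p = 0.0121) and −1.28 ± 0.11 (adjusted p = 0.0197), Lgmn by −0.84 ± 0.07 (adjusted p = 0.0180) and Ctsz by −0.61 ± 0.07 (adjusted p = 0.0287). Of 11 ADAM proteases 1 fell, Adam8, a myeloid surface protease (−1.76 ± 0.09, adjusted p = 0.0121). The plasminogen system had 1 of 10 lower, the urokinase receptor Plaur (−0.55 ± 0.07, adjusted p = 0.0377), and the collagen-processing list 1 of 16, the lysyl hydroxylase Plod1 (−0.44 ± 0.06, adjusted p = 0.0399). None rose in these lists, and 0 moved among 9 other metalloprotease regulators, 14 substrates of aggrecanases and elastases and 16 inducers of protease expression. Several of these genes, such as Ctss, Adam8 and Plaur, are abundant in macrophages, whose markers are given above. The part of these cells in the differences of these lists was not tested.

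In inguinal fat, brown fat and liver 0 genes of these 7 lists passed. Inguinal medians were −0.46 over 9 plasminogen system genes, −0.36 over 15 collagen-processing genes, −0.36 over 14 substrates, −0.23 over 11 ADAM proteases, −0.22 over 9 other regulators, −0.17 over 13 cathepsin genes and 0.09 over 17 inducers. Values there included −1.28 ± 0.14 for Pcolce2, which enhances procollagen trimming (adjusted p = 0.285), and −0.94 ± 0.16 for Ncan, a proteoglycan (adjusted p = 0.313). Brown fat medians ran from −0.09 to 0.12, with 0.52 ± 0.09 for Bsg, which encodes an inducer of metalloproteases (adjusted p = 0.228), and 0.46 ± 0.09 for Tgfb1 (adjusted p = 0.228). Liver medians ran from −0.06 to 0.01, with −0.55 ± 0.18 for Jun, a subunit of AP-1 (adjusted p = 0.392), and −0.32 ± 0.09 for Bgn, or biglycan (adjusted p = 0.300).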

How the data were processed

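RNA sequencing of total RNA is held in 4 deposited tables, 1 per tissue, of regularized log2 values that the authors computed for every gene and library; the scale is read from the tables' names. The tools listed, per the submitters' processing notes and with no role stated, are TopHat2 2.1.1, DESeq2, bcl2fastq 2.17.1.14 and bedtools, with mouse build mm9. The annotation, the counting and the strand setting were not given in the sources used here. Such values are shrunk towards each gene's mean, most at low counts, so differences and spreads of low genes are understated, and tables were compared only through differences within each. They keep no read totals, so depth is unknown. Without a length scale, levels were not compared between genes.

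From these values, genes with a mean of at least 3 (15526 of 22972 in epididymal fat, 14916 of 22103 in inguinal fat, 13044 of 19664 in brown fat, 12394 of 18566 in liver) were fitted per tissue by limma 3.58.1 (R 4.3.3), the moderated variance having an intensity trend and 2 residual degrees of freedom. All tests were two-sided. A gene passed at a Benjamini-Hochberg adjusted p under 0.05, written as rose or fell. Interaction contrasts compared tissues over genes tested in both. An exact permutation test of 2 against 2 libraries cannot go below 0.333 and was not used. The fits were tested on simulated data drawn in 2 ways. With spreads taken from the moderated variances, false calls were above the threshold in the fat depots and below it in liver. With spreads drawn from the fitted prior, a way added after the first was seen, they were below it in each tissue. The fit was not changed.

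Genes were named with every library's value if they passed anywhere, were among the 5 largest differences of a tissue, belonged to Timp1 to Timp4, Lox to Loxl4, Mmp2, Mmp9 or Mmp14, or differed between tissues; their values are then given in every tissue for the families and called genes. Up to 4 genes per other list were taken by p. Some results under this rule are not reported here. Adamts1, Adamts5 and Adamts9 in all tissues, Adamtsl1, the chromosome 9 neighbours and marker genes were chosen after their values were seen. The members and lists were chosen with earlier results of these data known. Groups and replicate numbers follow the sample titles; for sunitinib livers the titles give 3 and 4 where the description labels give 1 and 2. Promoter sequences are from RefSeq and another build than the libraries'. The correlation of same-numbered libraries' deviations was 0.224 in epididymal, 0.108 in inguinal and −0.256 in brown fat, and 0.435 in liver by the description labels' numbers.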

Additional observations from a re-analysis of the deposited data

Results flagged for a closer look

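In 3 cases the sunitinib difference of a gene differed between tissues by the limma interaction contrast. For Mmp12 the epididymal minus the brown fat difference was −1.35 (−1.52 against −0.17, adjusted p = 0.00300). Both epididymal sunitinib libraries lay below both vehicle libraries, and so did both in brown fat, by a smaller gap.

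For Adamts9 the epididymal minus the brown fat difference was −0.54 (−0.02 against 0.52, adjusted p = 0.0306). For Adamts5 the epididymal minus the liver difference was −0.41 (−0.35 against 0.06, adjusted p = 0.0454). Each was called with all libraries and lost in most or all fits that left 1 out. Mmp12 in brown fat and Adamts5 in liver were low genes, whose differences are understated by the shrinkage of the deposited values. The part of shrinkage in these contrasts was not tested.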

How the results depend on the processing

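Tried were no filter on the mean, a mean of at least 5, quantile normalization, columns centred on their median, no variance trend, robust variance moderation, 1 fit over the 4 tissues, a replicate block and each library left out, where the lone library is assumed to vary like the other group. In epididymal fat leaving out vehicle replicate 1 or vehicle replicate 2 lost the calls of Mmp12 and Mmp19. Leaving out sunitinib replicate 1 added Adamts20 as higher, and leaving out sunitinib replicate 2 added Adamts8, Mmp9 and Mmp17 as higher. Counts of genes of the set called lower and higher, 2 and 0 in epididymal fat, were 1 lower with no filter and 5 lower with columns centred (among 1027 genes called in all, 933 of them lower). In inguinal fat, where both were 0, they were 16 lower in 1 fit over the tissues (among 3174 called, 1682 lower), and 0 to 20 lower and 0 to 2 higher with 1 library left out, the most without sunitinib replicate 1. In brown fat leaving out 1 library gave 0 to 5 lower and 0 to 4 higher, and in liver 0 to 1 lower. Brown fat had its 5 lower without vehicle replicate 1 (among 1292 called) and its 4 higher without vehicle replicate 2 (among 656), and liver its 1 without vehicle replicate 1 (among 167) or sunitinib replicate 4 (among 454).

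Medians of the set, −0.02 in epididymal fat, were −0.086 at a mean of at least 5, −0.11 with columns centred, −0.078 in 1 fit and −0.061 to −0.012 with 1 library left out. With columns centred the median of all epididymal genes was −0.077. In inguinal fat leaving out 1 library gave −0.42 to −0.16. In brown fat the median, −0.0071 with all libraries, was 0.10 at a mean of at least 5 and −0.020 to 0.034 with 1 library left out. With columns centred it was 0.029, where that of all genes was 0.031. In liver it was −0.0073 with no filter and −0.061 to −0.011 with 1 library left out.

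Genes whose difference differed between epididymal and brown fat, 2 in number, were 1 at a mean of at least 5, 8 with columns centred, 4 with robust variance moderation and 1 to 5 with 1 library left out. For epididymal fat and liver, 1 in number, they were 2 with no filter, 0 at a mean of at least 5, 0 under quantile normalization, 3 with columns centred, 2 with robust variance moderation and 0 to 1 with 1 library left out. Leaving out 1 library gave 0 to 12 for epididymal minus inguinal fat, 0 to 19 for inguinal minus brown fat, 0 to 17 for inguinal fat minus liver and 0 to 4 for brown fat minus liver, the most without inguinal sunitinib replicate 1 or, in the last pair, brown fat vehicle replicate 1. The leave-one-out fits and replicate block of tissue pairs, and the crossed and description-number blocks, were chosen after seeing the data. The cause of these changes was not tested.

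The replicate numbers are shared by 2 pairs per fat depot, and the labels do not say that they pair libraries. With a replicate block the counts were 2 lower and 1 higher in epididymal fat, where Mmp7 passed, and 0 in inguinal and brown fat. Between epididymal and brown fat the replicate block left 1. A crossed replicate block in brown fat gave 0 lower and 0 higher. In liver the titles share no number but the description labels do. A replicate block by description numbers gave 1 lower (Timp3, among 757 called) and 0 higher in liver, and 3 for epididymal fat minus liver (among 903), with 0 in the other pairs with liver.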
